A study of Rattus norvegicus with 30 samples.

Results

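Testin, 3 cystatins (Cst3, Cst9 and Cst12), 4 cathepsins (Ctsl, Ctsb, Ctsd and Ctsk) and the lysosomal glycosidase Fuca1 were followed in rat testis and in testis explants kept in organ culture. These 9 genes of the 17322 in the deposited table were chosen by measured values, since Testin, Cst3, Ctsl and Fuca1 rise in culture in these libraries, and the other 5 are further cystatins and cathepsins. The rise of those 4 genes in culture, and the level of all 9 in explants beside the testis, are therefore given as description and without a test. All 9 were above 0 in every library used, and all 9 passed the filter on low values.

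The study measured polyadenylated RNA of Wistar Han rats by sequencing, as part of a search for what lies behind the arrest of meiosis in cultured testis. In vivo testes, not cultured, were taken at 8.5 and 53.5 days postpartum (dpp) and, between these ages, at 36.5, 30.5 and 24.5 dpp, 3 libraries each, and at 14.5 dpp, where 2 of 3 testes could be used because the deposited column of the other holds 0 for all 17322 genes. Explants were fragments of testes taken at 8.5 dpp and kept on agarose at the gas-liquid interphase in αMEM with Knock-out serum replacement, retinol and vitamin E until day 6 (D6), day 16 (D16), day 22 (D22) or day 28 (D28), 3 libraries each. Each cultured library came from a pool of explants without their necrotic centre, so it averages over fragments and describes their living rim.

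According to the study, the libraries of an age came from separate testes and each cultured pool held tissue of several juvenile males, different males for the pools of a time point. The p-values below measure the spread between these testes or pools. Levels are FPKM, fragment counts scaled by the length of a gene's exons and by the size of the library. The table gives no read counts, and the depth of the libraries is unknown. Between 12520 and 13563 genes were above 0 in a library.

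Cathepsins are made as inactive proenzymes, sorted to the lysosome by mannose 6-phosphate receptors and activated at low pH. Cystatin C, the product of Cst3, is a tight-binding inhibitor of the cysteine cathepsins that leaves the aspartic protease Ctsd untouched. Whether the products of Cst9 and Cst12 inhibit cathepsins cannot be read from these data. In the testis, Sertoli cells secrete procathepsin L and Testin, a relative of cathepsin L in which the catalytic cysteine is replaced by serine and which is known from the junctions between Sertoli and germ cells. Sertoli cells also take up residual bodies and dying germ cells and degrade them in lysosomes, where Fuca1 removes fucose from glycoproteins and glycolipids.

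Sertoli cell genes were present in every group, while Leydig cell markers were low in explants. The Sertoli cell genes Sox9, Wt1 and Gata4 had a geometric mean of 101 FPKM ± 9.43 (SD, n = 3) at 8.5 dpp, 112 ± 3.53 (n = 2) at 14.5 dpp and 6.55 ± 0.401 (n = 3) at 53.5 dpp. In culture the same mean was 118 ± 7.003 at D6 and 112 ± 5.64 at D28 (n = 3 each). The Leydig cell enzyme Cyp17a1 was near 0 in the explants, at 0.472 FPKM ± 0.1497 (n = 3) on D28 against 83.4 ± 58.3 (n = 2) at 14.5 dpp. The Leydig cell list, 7 genes with Insl3 the most abundant over all libraries, summed to 29.5 FPKM ± 6.80 (n = 3) on D28 and 226 ± 114 (n = 2) at 14.5 dpp. Here and below, the most abundant gene of a marker list is that over all libraries together, and another gene may lead in a single group.

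Some libraries stood apart from the others of their group. Replicate 3 at 24.5 dpp was low in Leydig cell transcripts, with Insl3 at 7.18 FPKM against 160.1 and 98.1 in the other testes of that age, and higher in the Sertoli cell transcripts Clu, at 2083 FPKM against 1499 and 1366, and Sox9, at 22.0 FPKM against 14.0 and 15.01. The testes at 14.5 dpp differed at 3.05% of the genes compared, among them the meiotic gene Sycp3 at 6.17 and 38.4 FPKM. Replicate 1 at D28 and replicate 2 at 30.5 dpp stood off at 1.45% and 1.44% of genes. Counted were genes whose FPKM + 1 differed by a factor of 2 or more from every other library of the group. At 14.5 dpp that is a single other library, so the share there comes from a laxer rule. Calls that changed without 1 of these libraries are given with and without it, while ratios of group means include all libraries of a group.

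Testin was at 1.78, 1.92 and 2.23 FPKM in the testes at 8.5 dpp, 2.12 and 1.51 at 14.5 dpp, and 0.784, 0.962 and 19.3 at 24.5 dpp. At later ages it was at 1.57, 1.09 and 0.738 (30.5 dpp), 0.424, 0.640 and 0.379 (36.5 dpp) and 0.437, 0.299 and 0.604 (53.5 dpp). In explants it was at 4.74, 4.76 and 3.74 on D6, 22.4, 20.5 and 24.1 on D16, 60.5, 27.7 and 24.6 on D22, and 59.9, 79.8 and 51.3 on D28. Every cultured library from D16 on was above all 17 in vivo libraries, and those at D6 were above all in vivo libraries but replicate 3 at 24.5 dpp. D28 was 32.2-fold above 8.5 dpp, 35.1-fold above 14.5 dpp and 14.4-fold above D6 by means. Among all genes, Testin stood at the 46.7th percentile of level at 8.5 dpp and at the 93.9th on D28.

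In order of mean Testin level, D28 (63.7 FPKM ± 14.6) and D22 (37.6 ± 19.9) overlapped, D16 (22.3 ± 1.79) lay just below D22 without overlap, and D6 (4.42 ± 0.582) lay between D16 and the testis at 8.5 dpp (1.98 ± 0.227), apart from both (SD, n = 3 each). The mean at 24.5 dpp, 7.003 FPKM ± 10.6, rested on replicate 3. The testes at 8.5 and 14.5 dpp overlapped, as did those at 36.5 and 53.5 dpp. From 8.5 to 53.5 dpp the log2 change by limma was -1.04 (SE 0.629, adjusted p 0.132), and all 3 testes at 53.5 dpp were below all 3 at 8.5 dpp. Without replicate 3 at 24.5 dpp the same change of -1.04 passed the test (limma adjusted p 9.62e-06, in a range of 9.62e-06 to 0.346 over the 25 settings tried). With a pseudocount of 0.1 it was -1.96 (limma adjusted p 0.0413). The step from 14.5 to 24.5 dpp likewise turned from 0.57 to -0.58 without that library (limma adjusted p 0.518 and 0.0107, in a range of 0.0107 to 0.748 over the 25 settings tried). That from 24.5 to 30.5 dpp was -0.98 (limma adjusted p 0.183), turned to 0.17 without replicate 3 at 24.5 dpp and passed the test without replicate 1 at 24.5 dpp (-1.58, limma adjusted p 0.0394, in a range of 0.0394 to 0.369).

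**Figure D1:**
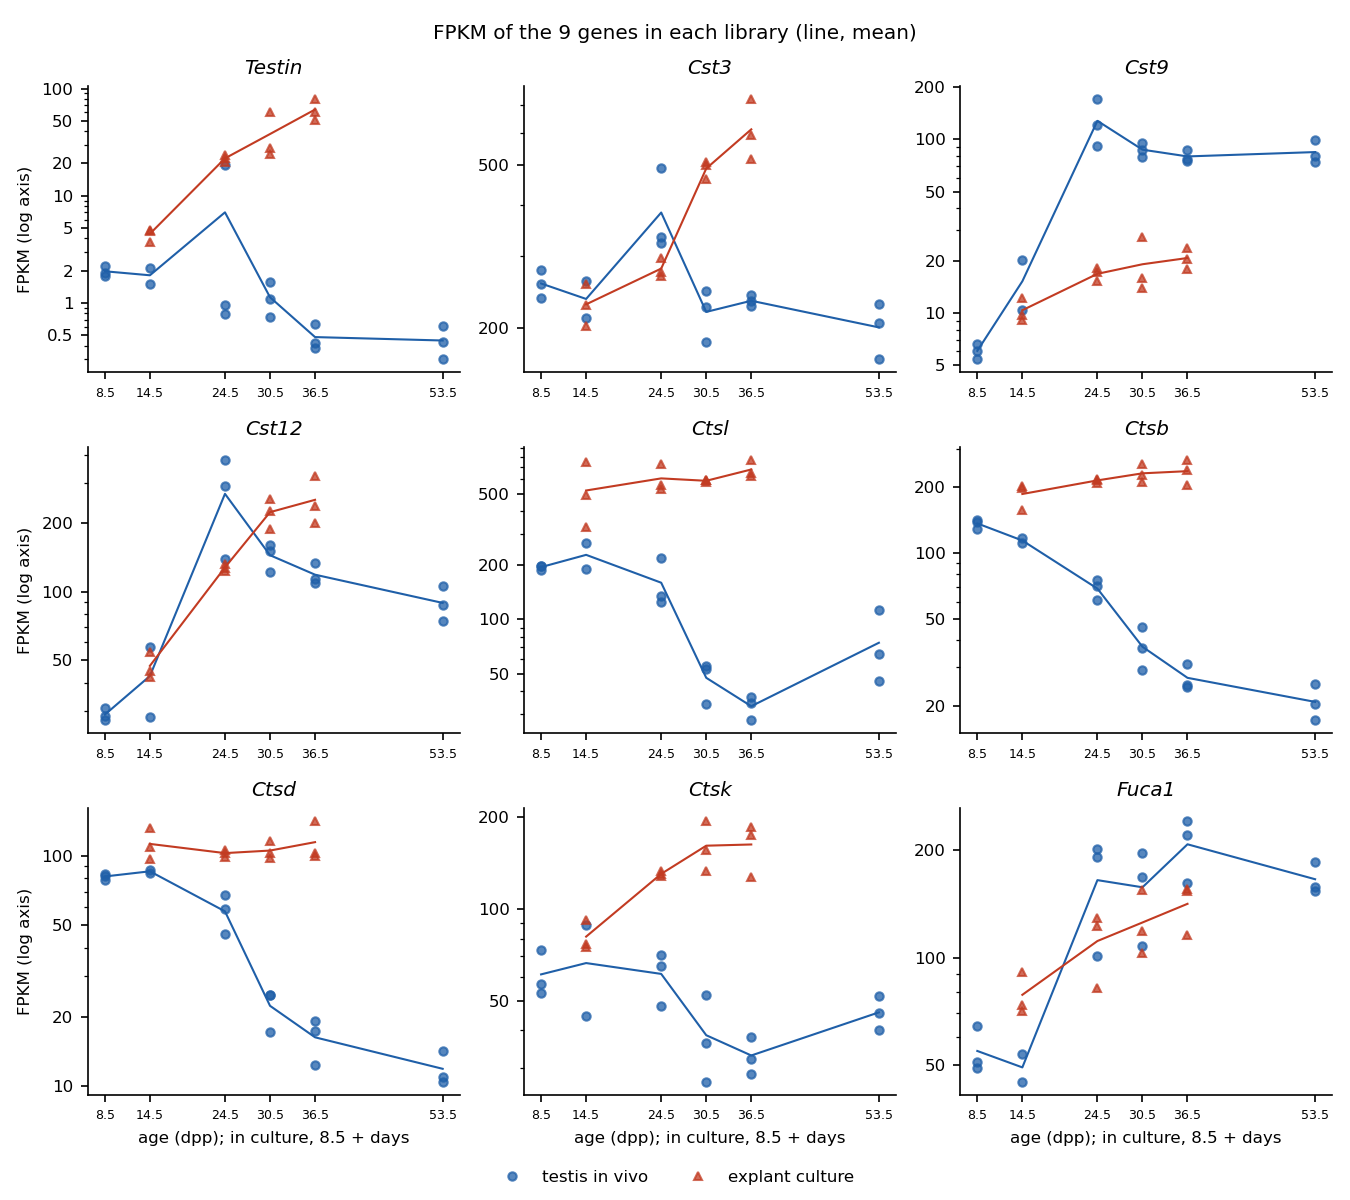
FPKM (log axis) of each of the 9 genes against age in dpp, with explants placed at 8.5 dpp plus their days in culture, where circles are in vivo testes, triangles are cultured libraries and lines join group means. Testin at D28 (51.3 to 79.8 FPKM) lies above all 17 in vivo libraries, while Cst9 at D28 (17.9 to 23.7) lies below the 36.5 dpp testes (74.8 to 87.1).

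The cystatins differed from each other in both settings. Cst3 encodes cystatin C, a secreted inhibitor found in most body fluids, and was the most abundant member in most in vivo libraries. It was at 256, 277 and 236 FPKM at 8.5 dpp, 210.5 and 259 at 14.5 dpp, 492, 334 and 322 at 24.5 dpp and 225, 185 and 246 at 30.5 dpp. It was at 232, 239.7 and 226 FPKM at 36.5 dpp and at 205, 167 and 228 at 53.5 dpp. Explants had 227, 202 and 255 FPKM on D6, 273, 296 and 267 on D16, 500.1, 462 and 509 on D22, and 726, 518 and 592 on D28. The D28 libraries were above all 17 in vivo libraries, with a mean of 612 ± 106 (SD, n = 3), 2.60-fold that of 14.5 dpp. In order of mean, D28 lay above D22 without overlap, D22 overlapped 24.5 dpp, and 24.5 dpp lay above D16, while D16, 8.5, 14.5 and 36.5 dpp, D6, 30.5 and 53.5 dpp each overlapped the next. In vivo, the log2 change from 14.5 to 24.5 dpp was 0.68 (SE 0.185, limma adjusted p 0.00545, 3 of 3 testes above both at 14.5 dpp), short of the fold of 2 between group medians that a call also needed.

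Cst9 encodes a cystatin-like protein known in the mouse as testatin, and Cst12 another member of the same family. The values given for Cst9 are those of the gene with the RefSeq symbol Cst9l, to which the name was matched as a synonym. Cst9 was at 6.64, 5.41 and 6.07 FPKM at 8.5 dpp, 10.3 and 20.1 at 14.5 dpp, 120.4, 171 and 92.0 at 24.5 dpp and 79.4, 87.1 and 94.7 at 30.5 dpp. It was at 87.1, 74.8 and 77.0 FPKM at 36.5 dpp and at 79.8, 73.7 and 99.5 at 53.5 dpp. In explants it was at 9.09, 12.2 and 9.73 FPKM on D6, 15.2, 17.1 and 18.1 on D16, 27.2, 16.0 and 14.0 on D22, and 23.7, 20.4 and 17.9 on D28. No cultured library reached any testis of 24.5 dpp or older, and the explants of D6 to D28 overlapped the testes at 14.5 dpp. The mean at D28, 20.7 ± 2.91, was 0.260 times that of 36.5 dpp, 79.6 ± 6.55 (SD, n = 3 each).

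In vivo Cst9 rose by 1.14 log2 units from 8.5 to 14.5 dpp (SE 0.252, limma adjusted p 0.00274, both testes above all 3) and by 3.01 from 14.5 to 24.5 dpp (SE 0.252, limma adjusted p 2.27e-07, 3 of 3 testes above both). The earlier step rested on replicate 2 at 14.5 dpp and was 0.69 without it (limma adjusted p 0.0784, in a range of 4.44e-04 to 0.0784 over the 25 settings tried). It was the only member called in that step, where 8.37% of all genes were called higher and 6.32% lower.

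Cst12 was at 27.3, 30.9 and 28.6 FPKM at 8.5 dpp, 28.3 and 57.2 at 14.5 dpp, 379, 291 and 139 at 24.5 dpp and 152, 122 and 161 at 30.5 dpp. It was at 114, 109 and 134 FPKM at 36.5 dpp and at 87.6, 74.6 and 106 at 53.5 dpp. Explants had 45.1, 54.7 and 42.4 FPKM on D6, 132, 124 and 128 on D16, 189, 255 and 228 on D22, and 201, 238 and 322 on D28. In contrast to Cst9, the D22 and D28 explants reached the range of the testes at 24.5 dpp, and they lay above the testes of matched age at 30.5 and 36.5 dpp without overlap. The mean at D28, 254 ± 62.3 (SD, n = 3), was 8.78-fold that of 8.5 dpp and 2.13-fold that of 36.5 dpp. In vivo Cst12 rose by 2.60 log2 units from 14.5 to 24.5 dpp (SE 0.343, limma adjusted p 1.71e-05, 3 of 3 testes above both).

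Of the 9 members, Cst9, Cst12 and Fuca1 were called higher in that step, where 14.2% of all genes were called higher and 21.4% lower, and the median change of all genes was -0.13. In the main setting Ctsb (-0.73), Ctsd (-0.59) and Cst3 (0.68) passed on p and not the fold of 2. Over the 25 settings limma's adjusted p ran up to 0.0274 for Ctsb and 0.0981 for Ctsd. The spermatocyte list held 11 genes, with Ldhc the most abundant over all libraries together. At 14.5 and 24.5 dpp Ldhc was below the meiotic gene Sycp3 in every library. The list summed to 30.0 and 99.2 FPKM at 14.5 dpp and to 1600.1, 1678 and 1278 at 24.5 dpp. All 11 of its genes were higher at the later age and none was at 0 in all libraries. Lower at that age were 12 of 15 Sertoli cell markers (median log2 ratio -0.93) and 9 of 9 peritubular and fibroblast markers (-1.99). So were 6 of 8 endothelial (-0.99) and 12 of 15 macrophage markers (-0.40), while 4 of 7 Leydig cell markers were higher (0.11). The part of these lists in the result was not tested. In bulk tissue, fewer cells of a type and less RNA per cell cannot be told apart.

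Cst12, Cst8, Cst13, Cst9, Cstdc2 and Cst3 follow each other in this order on chromosome 3 of the rat assembly GRCr8. Cst8, known from spermatids and the epididymis, and Cst13 were at 131 FPKM ± 7.49 and 104 ± 20.0 at 53.5 dpp and at 28.2 ± 4.80 and 3.34 ± 0.694 on D28 (SD, n = 3 each). Among these neighbours, Cst3 and Cst12 were at their highest or near it in late culture, Cst8 and Cst13 were highest at 53.5 dpp, and Cst9 was highest at 24.5 dpp, at 127.6 FPKM on average. Cst8 was also high in the young testis, at 80.5, 75.9 and 84.8 FPKM at 8.5 dpp, was at 8.53, 20.6 and 14.6 at 30.5 dpp and was at 123, 138 and 133 at 53.5 dpp.

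**Figure D2:**
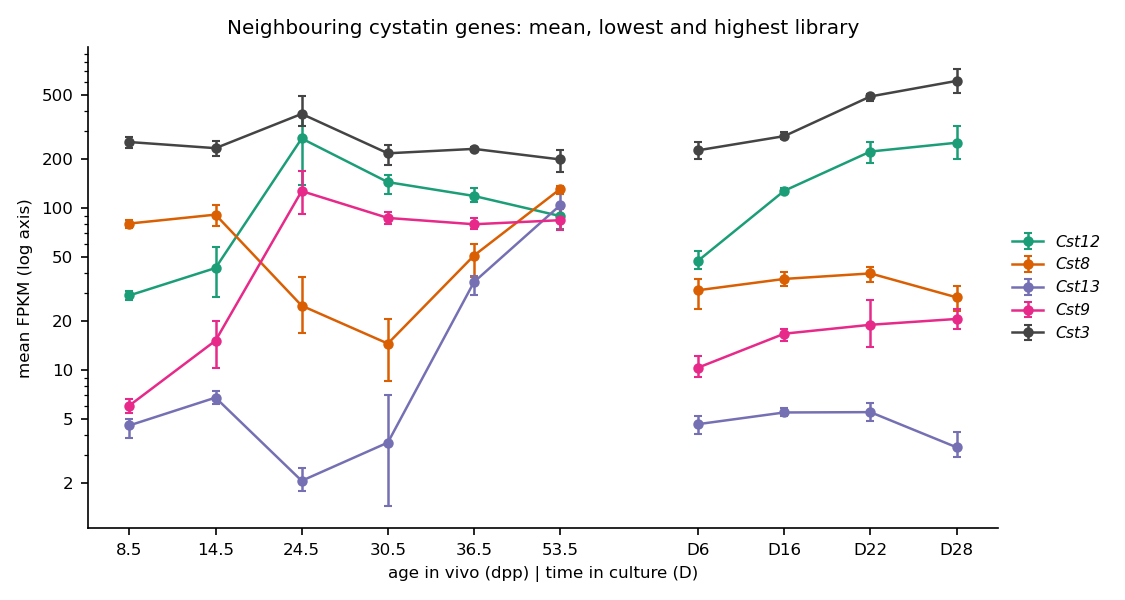
Mean FPKM (log axis) of 5 neighbouring cystatin genes by age in vivo (dpp) and time in culture, with bars from the lowest to the highest library of a group. Cst3 and Cst12 climb through culture to 612 and 254 FPKM on D28, while Cst13 is at 3.34 FPKM there and at 104 FPKM at 53.5 dpp.

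Among the proteases, Ctsl encodes cathepsin L, a cysteine endopeptidase that Sertoli cells of the rat release as its proenzyme in a stage-dependent way. It was at 199, 188 and 199 FPKM at 8.5 dpp, 266 and 191 at 14.5 dpp, 125, 135 and 220.0 at 24.5 dpp and 53.2, 33.8 and 55.4 at 30.5 dpp. It was at 37.1, 34.3 and 27.5 FPKM at 36.5 dpp and at 45.3, 64.6 and 113 at 53.5 dpp. Explants had 489.6, 745 and 326 FPKM on D6, 561, 532 and 729 on D16, 594, 579.6 and 593 on D22, and 627, 766 and 649 on D28. All 12 cultured libraries were above all 17 in vivo libraries. D6 and D28 overlapped through replicate 2 at D6, and all 3 libraries of D28 were above all 3 of D22. The mean at D6, 520.2 ± 211, was 2.66-fold that of 8.5 dpp, and that at D28, 681 ± 74.8, was 3.48-fold (SD, n = 3 each). In order of mean, D28, D16, D22 and D6 each overlapped the next and lay apart from 14.5 dpp, which overlapped 8.5 dpp as that did 24.5 dpp, and 53.5, 30.5 and 36.5 dpp followed, overlapping in turn.

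Ctsb, cathepsin B, a cysteine protease with both endopeptidase and dipeptidase action, was at 129, 139 and 142 FPKM at 8.5 dpp, 74.9, 60.7 and 70.6 at 24.5 dpp and 20.3, 17.2 and 25.1 at 53.5 dpp. It was at 203, 157 and 198 FPKM on D6 and at 266, 205 and 240.0 on D28. Ctsd, the aspartic protease cathepsin D, was at 82.1, 83.3 and 78.7 FPKM at 8.5 dpp, 58.8, 45.8 and 67.7 at 24.5 dpp and 10.97, 10.5 and 14.3 at 53.5 dpp. It was at 109, 97.3 and 132 FPKM on D6 and at 141, 100.1 and 103 on D28. For both genes all 12 cultured libraries were above all 17 in vivo libraries, by means 1.73-fold for Ctsb and 1.41-fold for Ctsd at D28 over 8.5 dpp. Of all pairs of members, these had the most alike patterns, with a mean absolute log2 difference of 0.196 over the 10 groups after centring each gene, while Cst9 and Ctsl were the least alike at 2.56.

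Ctsk, cathepsin K, the collagen-degrading cysteine protease best known from osteoclasts, was at 73.6, 56.5 and 52.9 FPKM at 8.5 dpp, 44.5 and 88.4 at 14.5 dpp and 64.8, 70.8 and 48.0 at 24.5 dpp. It was at 36.2, 27.1 and 52.2 FPKM at 30.5 dpp, 32.3, 28.8 and 38.0 at 36.5 dpp and 45.4, 40.2 and 51.7 at 53.5 dpp. Explants had 76.5, 91.7 and 75.3 FPKM on D6, 128, 133 and 130.0 on D16, 134, 194 and 157 on D22, and 186, 128 and 174 on D28. From D16 on all cultured libraries were above all 17 in vivo libraries, and D28 was 2.67-fold above 8.5 dpp by means. Of 6 osteoclast genes in the table, Acp5 was the most abundant, and their sum on D28 was 24.8, 18.3 and 20.0 FPKM against 18.4, 18.7 and 19.9 at 8.5 dpp. The osteoclast receptor Calcr was listed at 0 in all libraries of 8.5 dpp and of D28.

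Fuca1, the lysosomal alpha-L-fucosidase, was at 51.0, 49.1 and 64.3 FPKM at 8.5 dpp, 45.0 and 53.6 at 14.5 dpp, 191, 201 and 101 at 24.5 dpp and 108, 196 and 168 at 30.5 dpp. It was at 240.0, 162 and 219.8 FPKM at 36.5 dpp and at 185, 158 and 154 at 53.5 dpp. Explants had 71.0, 91.1 and 73.9 FPKM on D6, 129, 122 and 82.3 on D16, 103, 154 and 119 on D22, and 155, 154 and 115 on D28. The D28 explants were above all testes of 8.5 and 14.5 dpp and below all 3 testes of 36.5 dpp, with a mean 2.58-fold that of 8.5 dpp and 0.682 times that of 36.5 dpp. In order of mean level, 36.5, 53.5, 24.5 and 30.5 dpp, D28, D22, D16 and D6 each overlapped the next, and 8.5 and 14.5 dpp lay apart below D6. In vivo Fuca1 rose by 1.66 log2 units from 14.5 to 24.5 dpp (SE 0.290, limma adjusted p 2.03e-04, 3 of 3 testes above both).

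Across the testis ages as a whole, the question was how these genes move as the first wave of spermatogenesis fills the tubules. From 8.5 to 53.5 dpp, Ctsb fell by 2.67 log2 units (SE 0.162, limma adjusted p 5.97e-10), Ctsd by 2.68 (SE 0.184, limma adjusted p 2.42e-09) and Ctsl by 1.48 (SE 0.296, limma adjusted p 2.63e-04). Cst9 rose by 3.59 (SE 0.225, limma adjusted p 8.50e-10), Cst12 by 1.58 (SE 0.306, limma adjusted p 1.99e-04) and Fuca1 by 1.58 (SE 0.259, limma adjusted p 4.14e-05). For each of these 6 genes, the 3 testes at 53.5 dpp lay apart from the 3 at 8.5 dpp. Of the 9 members 3 were called higher, against 23.7% of the 12531 genes tested, and 3 lower, against 50.2%, shares near the background that are no result about the members. Over the 6 ages, 7 of the 9 were called by limma's F test and fold, against 90.2% of all genes. From 30.5 to 36.5 dpp, where 6.08% of all genes were called higher and 1.40% lower, Ctsb had a change of -0.44 (limma adjusted p 0.0484) short of the fold of 2. From 36.5 to 53.5 dpp 2.62% of genes were higher and 3.93% lower.

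The median of all genes changed by -0.74 from 8.5 to 53.5 dpp. After each library was scaled to the median ratio of its genes, which set that median to -0.07, Ctsb and Ctsd fell by 1.70 and 1.73, and Cst9, Cst12 and Fuca1 rose by 4.54, 2.57 and 2.57. The change of Ctsl became -0.49 and was no longer called (limma adjusted p 0.118, in a range of 1.95e-05 to 0.118 over the 25 settings tried). Cst3 turned from -0.36 to 0.63 (limma adjusted p 0.0516 and 0.00156) and Ctsk from -0.40 to 0.59 (limma adjusted p 0.161 and 0.0403). Of all genes called in this step, 32.1% were higher as deposited, 41.2% after quantile normalization and 49.5% after scaling.

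Of the steps between neighbouring ages, that from 24.5 to 30.5 dpp was the step with member cathepsins called lower. In it Ctsl fell by 1.72 log2 units (SE 0.296, limma adjusted p 1.35e-04) and Ctsd by 1.32 (SE 0.184, limma adjusted p 2.07e-05), with all 3 testes of 30.5 dpp below all 3 of 24.5 dpp. These were 2 of the 9 members, and 24.5% of all genes were called lower in that step, where the all-gene median was -0.32. The geometric mean of Sox9, Wt1 and Gata4 went from 37.2 to 12.9 FPKM in it. Relative to that mean, Ctsl and Ctsd were at 0.862 and 1.12 times the level of 24.5 dpp, with overlap. Relative to the summed Sertoli cell list, described below, they were at 0.792 and 1.03 times, again with overlap. The part of Sertoli cell transcripts in the 2 falls was not tested. Cst3 (-0.79, limma adjusted p 6.98e-04), Ctsb (-0.88, limma adjusted p 2.31e-04), Cst12 (-0.78, limma adjusted p 0.0344) and Ctsk (-0.69, limma adjusted p 0.0294) passed the threshold on p and not the fold of 2 between medians. Cst12 was called without replicate 3 at 24.5 dpp (-1.20, limma adjusted p 7.63e-04, in a range of 7.63e-04 to 0.442 over the 25 settings tried), without replicate 3 at 30.5 dpp (-0.86) and with quantile normalization (-1.12). Ctsb was called with quantile normalization (-1.02), and without replicate 3 at 30.5 dpp both Ctsb (-1.04) and Ctsk (-0.92) were. With median ratio scaling the changes were -1.23 for Ctsl and -0.84 for Ctsd, and neither reached the fold of 2 between medians. The share of called genes that were higher went from 34.9% to 78.3% with that scaling and to 45.3% with quantile normalization. From 36.5 to 53.5 dpp Ctsl had a log2 change of 1.06 (limma adjusted p 0.0135) with a ratio of medians of 1.88, and 3 of 3 testes above those of 36.5 dpp. It was called with median ratio scaling (1.44) and without replicate 1 at 36.5 dpp (1.14), replicate 1 at 53.5 dpp (1.36) or replicate 2 at 53.5 dpp (1.11). Without replicate 3 at 53.5 dpp, the highest of that age, the change of Ctsl was 0.71 and no longer passed on p (limma adjusted p 0.0576, in a range of 0.00346 to 0.0576 over the 25 settings tried).

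Marker lists moved with these steps. From 24.5 to 30.5 dpp the mean sum went from 3404 to 1283 FPKM for the Sertoli cell list. It went from 85.0 to 1353 for the spermatid list and from 149 to 109 for the peritubular and fibroblast list. From 36.5 to 53.5 dpp the 3 sums went from 992 to 659, from 6402 to 22666 and from 92.0 to 49.6 FPKM. The Sertoli cell list, 15 genes with Clu the most abundant and none at 0 throughout, summed to 2905, 2965 and 2768 FPKM at 8.5 dpp and to 564, 711 and 703 at 53.5 dpp, and 12 of the 15 were lower at the later age. The spermatid list, 11 genes in the table with Tnp1 the most abundant, summed to 10.4, 11.8 and 6.12 FPKM at 8.5 dpp and to 23452, 25028 and 19518 at 53.5 dpp, and all 11 were higher. The peritubular and fibroblast list, 10 genes led by Dcn and with Col1a2 listed at 0 in every library, summed to 1287, 1234 and 1279.6 FPKM at 8.5 dpp and to 43.5, 47.3 and 57.9 at 53.5 dpp. Their part in the result was not tested.

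Set against Sertoli cell transcripts, the course of several members turned with the transcripts taken as reference. Ratios were taken to the geometric mean of Sox9, Wt1 and Gata4, and to the summed FPKM of the 15 genes of the Sertoli cell marker list. Both were chosen after the values were seen and neither was tested. The geometric mean was 101 FPKM at 8.5 dpp, 6.55 at 53.5 dpp and 112 on D28, and the sum averaged 2879, 659 and 6645 FPKM. From D6 to D28 the sum rose mostly through Clu, as given below, so the second ratio in culture depends largely on that gene. For Testin the ratio to the mean of the 3 genes was 0.0198 at 8.5 dpp, 0.0679 at 53.5 dpp and 0.566 on D28. So Testin was 28.6-fold higher on D28 than at 8.5 dpp by that ratio and 14.2-fold higher by the ratio to the list. At 53.5 dpp it was at 3.42 times the level of 8.5 dpp by the first ratio and at 0.996 times by the second, where the libraries overlapped. Ctsl was higher than at 8.5 dpp by both, 3.11-fold and 1.52-fold on D28 and 5.73-fold and 1.63-fold at 53.5 dpp. Cst3 and Ctsk, lower in FPKM at 53.5 dpp than at 8.5 dpp, were also higher there by both ratios. Cst3 was 12.0-fold and 3.46-fold higher and Ctsk 11.6-fold and 3.32-fold, with no overlap. The cathepsins Ctsb and Ctsd turned: at 53.5 dpp they were at 2.33 and 2.24 times the level of 8.5 dpp by the first ratio and at 0.673 and 0.644 times by the second. On D28 they were at 1.56 and 1.27 times that level by the first, with overlap for Ctsd, and at 0.751 and 0.614 times by the second. Cst3, Ctsk and Fuca1, at 2.16, 2.43 and 2.29 times the level of 8.5 dpp on D28 by the first ratio, overlapped with 8.5 dpp by the second. At D28 against 36.5 dpp, Testin and Ctsl were higher by both ratios, 11.5-fold and 1.82-fold by the first and 20.3-fold and 3.11-fold by the second. Cst3, Cst12 and Ctsk, higher in FPKM, were lower in mean by both, at 0.232, 0.186 and 0.435 times the level of 36.5 dpp and at 0.392, 0.314 and 0.726 times, with overlap for Ctsk by the second. Ctsb and Ctsd again turned, from 0.784 and 0.626 times to 1.31 and 1.06 times, with overlap for Ctsd by the second.

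**Figure D3:**
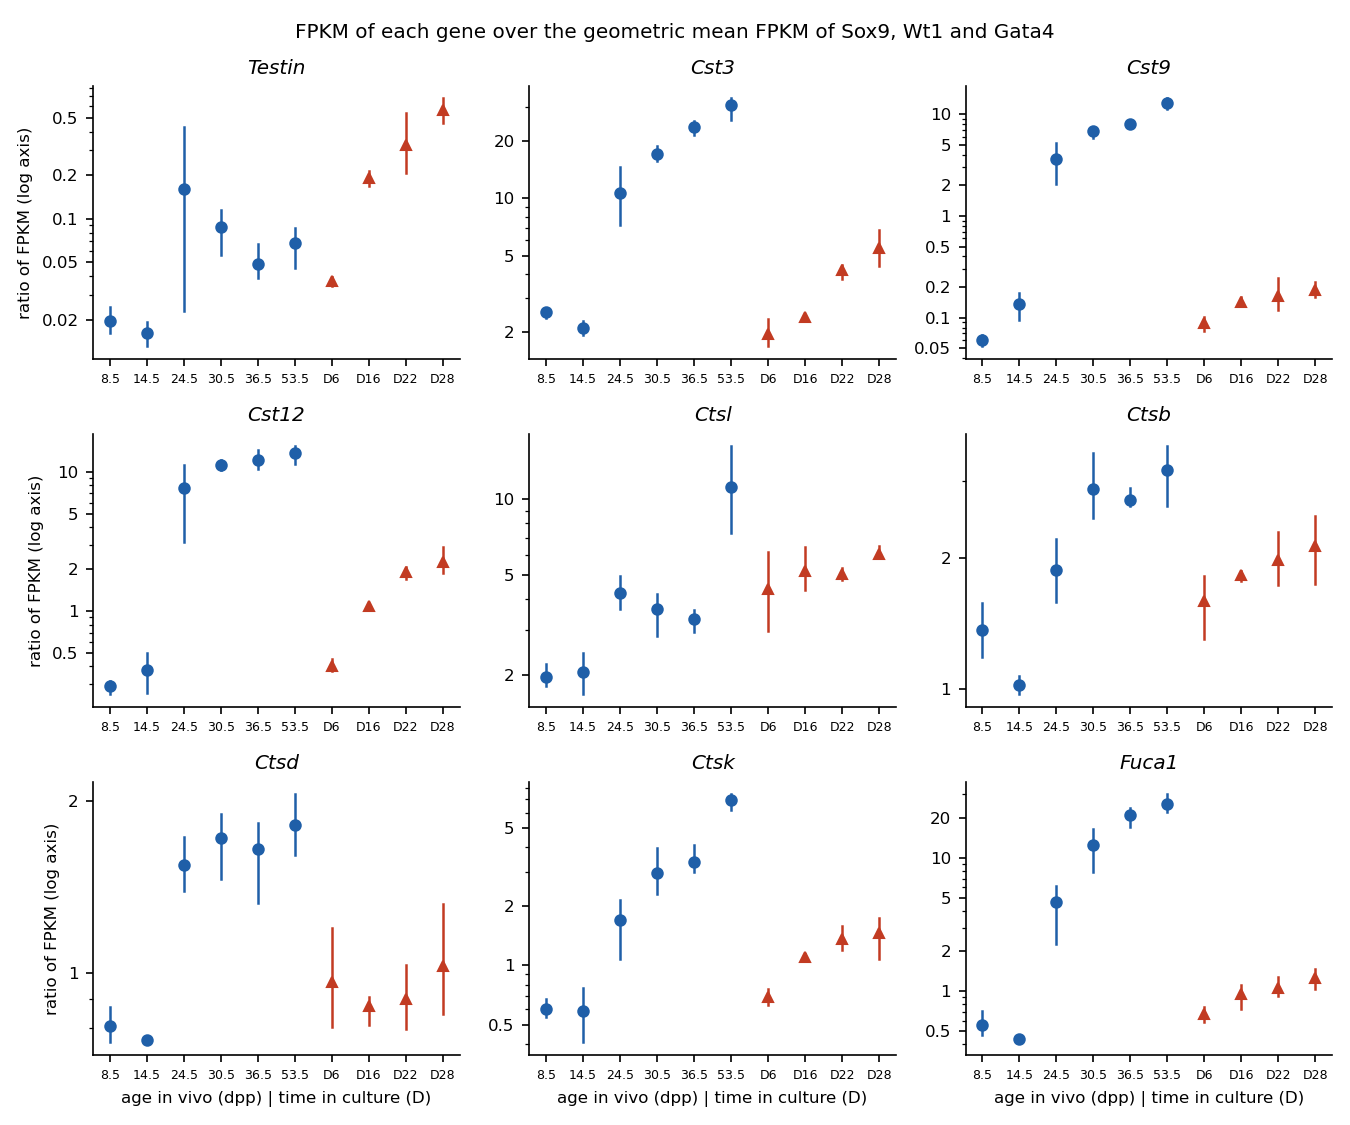
Ratio (log axis) of each gene's FPKM to the geometric mean FPKM of Sox9, Wt1 and Gata4, by age in vivo (circles, dpp) and time in culture (triangles), as mean with a bar from the lowest to the highest library. Testin reaches 0.566 on D28 from 0.0198 at 8.5 dpp, and Cst3 reaches 30.6 at 53.5 dpp and 5.50 on D28. The ratio to the summed list, given in the text, is not drawn.

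Within culture, the question was whether the level moved from D6, a time the study left out of its own tests, to later times. Of the 5 members tested there, Cst12 rose by 2.38 log2 units from D6 to D28 (SE 0.169, limma adjusted p 1.62e-05) and by 1.42 from D6 to D16 (SE 0.169, limma adjusted p 6.07e-04), with all 3 later libraries above all 3 at D6. Ctsk rose by 0.98 from D6 to D28 (SE 0.161, limma adjusted p 0.00160) and Cst9 by 0.94 (SE 0.210, limma adjusted p 0.00893), again with no overlap. Ctsb had a change of 0.35 (SE 0.125, limma adjusted p 0.0691) with no overlap, and Ctsd of 0.02 (SE 0.144, limma adjusted p 0.945) with overlap. A p above the threshold does not show that the levels were the same. Members were chosen with earlier results of these data known, so these p-values are not free of that choice.

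From D6 to D28, 3.04% of the 11358 genes tested were called higher and 2.65% lower, and 6.71% were called by limma's F test and fold. From D6 to D16, 1.31% were higher and 1.69% lower, from D16 to D22 0.203% and 0.0616%, and from D16 to D28 0.616% and 0.211%. From D22 to D28 0.00880% were lower. The call of Ctsk rested on replicate 1 at D28, without which its change was 0.88 (limma adjusted p from 8.58e-04 to 0.00867 over 20 settings) and its medians were within a fold of 2. That of Cst9 was lost in the same way without replicate 1 at D28 (0.84), replicate 1 at D6 (0.86) or replicate 3 at D6 (0.90), where limma's adjusted p ran from 0.00127 to 0.0379 over 20 settings. The other members, untested here, had D28 to D6 ratios of 14.4 for Testin, 2.68 for Cst3, 1.80 for Fuca1 and 1.31 for Ctsl, and overlapped only for Ctsl.

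Beside the testis at 8.5 dpp, from which the explants were made, all 9 members were higher on D28 with no overlap between libraries. By the same rule 33.7% of the 11339 genes with a median of 0.5 FPKM in either group were higher and 29.1% lower, and by limma and fold 13.6% of all genes were called higher and 10.5% lower. Beside 14.5 dpp, 8 of the 9 were higher on D28 with no overlap and Cst9 overlapped, where 24.0% of genes were higher and 32.0% lower without overlap, and 8.40% of all genes were called higher and 6.88% lower. At D16 beside 14.5 dpp 6.87% of genes were called higher and 6.14% lower, and at D22 7.76% and 5.99%. At D6 beside 8.5 dpp, 8 members were higher and Cst3 overlapped, where 33.0% of genes were higher and 25.5% lower without overlap. There 9.90% of genes were called higher and 6.23% lower, and at D16 and D22 12.4% and 13.6% were called higher and 9.72% and 9.92% lower. Nothing is read from these counts, since Testin, Cst3, Ctsl and Fuca1 were chosen for their rise in culture. Beside 36.5 dpp, the age that D28 explants would have had, 7 members were higher and Cst9 and Fuca1 lower with no overlap, where 56.8% of genes were higher and 30.2% lower by the same rule. Together the 9 members made up between 0.244% and 0.253% of the summed FPKM at 8.5 dpp, 0.369% and 0.502% at 24.5 dpp and 0.159% and 0.212% at 53.5 dpp. In explants their share was between 0.352% and 0.475% on D6 and between 0.725% and 0.747% on D28.

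**Figure D4:**
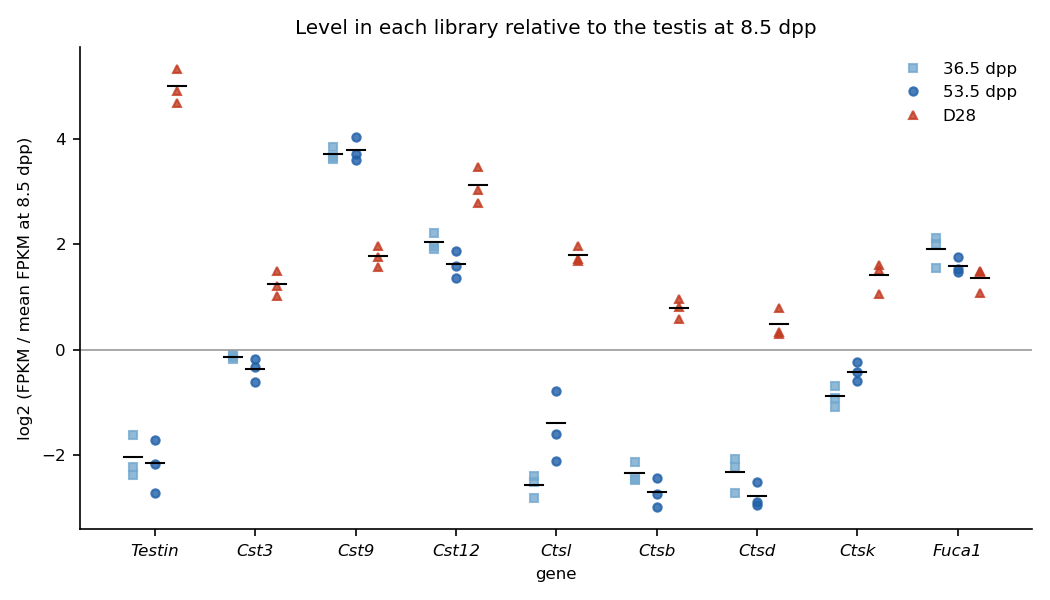
Log2 ratio of the FPKM in each library to the mean at 8.5 dpp for the 9 genes, at 36.5 dpp (squares), 53.5 dpp (circles) and D28 (triangles), with means as short lines. All D28 libraries lie above 0 for each gene. At 53.5 dpp Cst9, Cst12 and Fuca1 lie above it and the other 6 genes below it.

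Markers of other cell types were set beside these levels, with those of Sertoli cells. The Sertoli cell list summed to 3448 and 4396 FPKM at 14.5 dpp, 3419, 3102 and 3189 on D6 and 6536, 6146 and 7253 on D28, mostly through Clu, at 486 FPKM ± 60.8 on D6 and 2999 ± 387 on D28 (SD, n = 3 each), while Sox9 was at 50.9 ± 3.21 and 47.7 ± 2.76. Of its 15 genes 11 were higher in mean on D28 than on D6 (median log2 ratio 0.51) and 10 were higher than at 14.5 dpp (median 0.18). The macrophage list, 16 genes with Aif1 the most abundant over all libraries, summed to 80.8 and 75.4 FPKM at 14.5 dpp, 159.6, 146 and 189 at 8.5 dpp, 193, 163 and 205 on D6 and 319, 195 and 207 on D28. Itgam and Cd163, which do not lead that list, were listed at 0 in every D28 library. Csf1r was at 3.15 FPKM ± 1.07 there against 1.92 ± 0.0502 (n = 2) at 14.5 dpp. Cd68 of the same list was called higher by limma at D16, D22 and D28 beside 14.5 dpp. Of its genes above 0 in either group, 14 of 15 were higher in mean on D28 than at 14.5 dpp (median log2 ratio 1.09) and 12 of 14 were higher than on D6 (median 0.17).

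The peritubular and fibroblast list summed to 1267 FPKM ± 28.8 at 8.5 dpp, 690.5 ± 121 (n = 2) at 14.5 dpp, 674 ± 121 on D6 and 563 ± 40.2 on D28 (SD, n = 3 elsewhere). Of its 9 genes above 0, all 9 were lower on D6 than at 8.5 dpp (median log2 ratio -0.73), and 7 were lower on D28 than on D6 (median -0.88). The endothelial list, 8 genes with Cd34 the most abundant, summed to 144 FPKM ± 8.92 at 8.5 dpp, 78.8 ± 8.71 (n = 2) at 14.5 dpp, 154 ± 15.4 on D6 and 134 ± 28.7 on D28. Of these 8 genes 6 were higher on D28 than at 14.5 dpp (median 0.69) and 3 were higher than on D6 (median -0.06). On D28 beside 14.5 dpp, 4 of 9 spermatogonium, 2 of 11 spermatocyte and none of 8 spermatid markers above 0 were higher, with medians of -0.39, -0.53 and -0.39. None of the 7 Leydig cell markers was higher (median -1.93). On D28 beside D6, 10 of 11 spermatocyte and 5 of 9 spermatogonium markers were higher (medians 0.37 and 0.18). So were 5 of 8 spermatid and 5 of 7 Leydig cell markers (medians 0.04 and 0.42). The study left D6 out of its own tests because its cellular composition differed. The part of these marker lists in the result was not tested.

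The other genes of the lysosomal system were counted from 5 lists, 111 genes in the table without the 9 members. From 8.5 to 53.5 dpp 9 of the 86 tested were called higher by limma and 63 lower, beside 23.7% and 50.2% of the 12531 genes tested. Their median log2 change was -1.62 beside -0.74 for all genes. With median ratio scaling 16 were higher and 44 lower, beside 4214 and 4297 of all genes. By list, 12 of 13 other cathepsins and lysosomal proteases were lower, 3 of 7 cystatins and related inhibitors were lower and 2 higher, and 15 of 21 glycosidases were lower and 5 higher. Of the other hydrolases 12 of 16 were lower and 1 higher, and of activators, membrane proteins and sorting factors 21 of 29 were lower and 1 higher.

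Among the falls, Gusb, beta-glucuronidase, fell by 4.36 log2 units (SE 0.190, limma adjusted p 1.73e-11), from 25.4, 29.4 and 23.6 FPKM to 0.217, 0.351 and 0.377. The carboxypeptidase cathepsin Z, Ctsz, fell by 4.18 (limma adjusted p 2.47e-11) from 22.995, 29.0 and 31.4 FPKM to 0.607, 0.452 and 0.689. Lipa, the lysosomal acid lipase, fell by 4.08 (limma adjusted p 8.00e-11) and Atp6ap1, an accessory subunit of the proton pump, by 3.76 (limma adjusted p 5.56e-11), with all 3 testes at 53.5 dpp below all 3 at 8.5 dpp. The cystatin-like gene Cstdc1 fell by 4.36 (SE 1.16, limma adjusted p 0.00268), from 23.8, 29.9 and 42.8 FPKM to 0 in 2 of 3 testes and 2.89 FPKM in the other. Which of Gusb and Cstdc1 fell more turned with the setting, since with a pseudocount of 0.1 their changes were -6.00 and -6.66.

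Among the rises, Cst13 went up by 4.24 log2 units (SE 0.313, limma adjusted p 5.66e-09, 3 of 3 above 3 of 3) and Chit1, chitotriosidase, by 2.84 (SE 0.179, limma adjusted p 9.01e-10), from at most 0.0731 FPKM to 4.90, 6.96 and 7.76. Cstl1, a cystatin-like gene, was listed at 0 in all testes at 8.5 dpp and was at 61.1, 61.0 and 42.5 FPKM at 53.5 dpp. Lamp3, a lysosomal membrane protein, was listed at 0 at 8.5 dpp and was at 11.8, 12.4 and 6.29 FPKM at 53.5 dpp. Galc, galactosylceramidase, was listed at 0 at 8.5 dpp and was at 8.32, 5.08 and 4.59 FPKM at 53.5 dpp. Cstl1 and Lamp3 were listed at 0 in every cultured library.

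In explants at D16, D22 and D28 beside 14.5 dpp, 9 of the 82 other list genes tested were called higher by limma at all 3 times and 1 lower, where 5.43% of all genes were called higher and 3.67% lower. The median change of the lists on D28 was 0.42 beside -0.08 for all 11517 genes. Lyz2, lysozyme, was at 13.6 and 12.4 FPKM at 14.5 dpp and at 80.8, 63.3 and 72.3 on D28, a rise of 2.38 (SE 0.127, limma adjusted p 6.24e-06). Gm2a, the activator protein for ganglioside breakdown, was at 107 and 123 FPKM and then at 452, 562 and 518, a rise of 2.14 (SE 0.131, limma adjusted p 1.23e-05). All D28 libraries of both genes were above both testes at 14.5 dpp.

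Ctsh, cathepsin H, an aminopeptidase, rose by 1.35 log2 units (SE 0.111, limma adjusted p 3.81e-05) from 29.8 and 33.6 FPKM to 81.0, 74.4 and 91.8. Ctss, cathepsin S, a protease of antigen-presenting cells, rose by 1.32 (SE 0.124, limma adjusted p 6.89e-05) from 4.69 and 4.29 FPKM to 14.0, 12.8 and 11.5, and Plbd1 by 1.34 (SE 0.158, limma adjusted p 2.20e-04). Cst8 fell by 1.66 (SE 0.174, limma adjusted p 1.24e-04), from 77.9 and 104.7 FPKM to 23.3, 32.9 and 28.2. Without replicate 2 at 14.5 dpp Cst8 was no longer called at all 3 times, although it still was on D28 (-1.45). Manba, Cd68, Lgmn and Ctse, looked up after their values were seen, were the other genes called higher, and Lyz2 and Cd68 stand in the macrophage list as well.

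**Figure D5:**
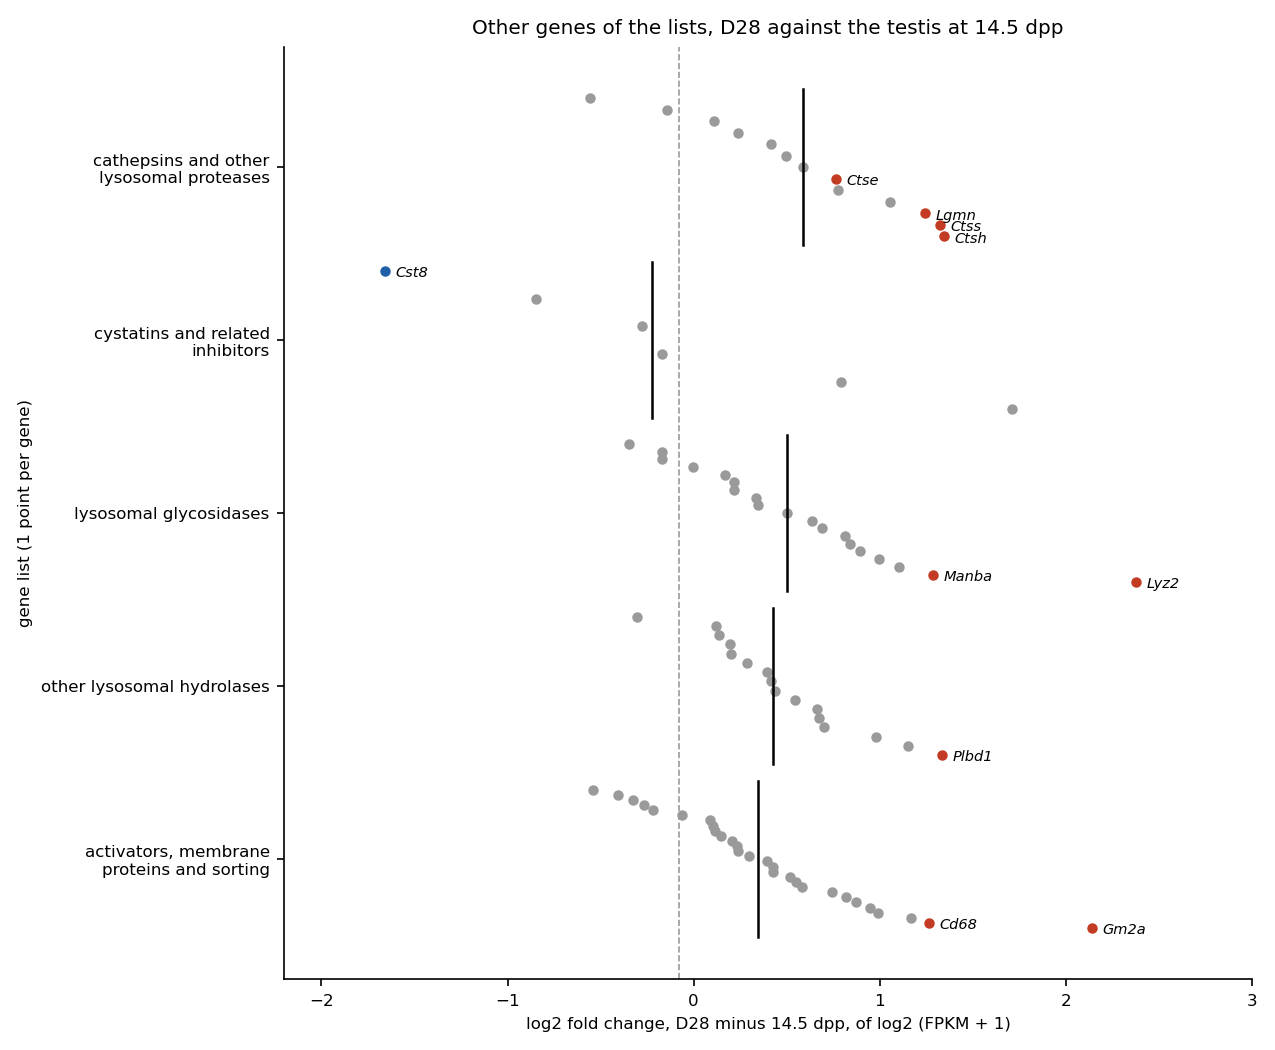
Log2 fold change of log2 (FPKM + 1) from the testis at 14.5 dpp to D28 for 82 other genes of the 5 lists, each point a gene, black bars the list medians and the dashed line the all-gene median (-0.08). Genes called at D16, D22 and D28 are named, 9 higher in red, with Lyz2 at 2.38 and Gm2a at 2.14, and Cst8 lower in blue at -1.66.

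Beside 8.5 dpp, only Lgmn, Manba and Mitf of the 82 were called higher by limma at all 4 culture times and only Cst8 lower, where 7.02% of all genes were called higher and 5.04% lower. These genes were looked up after their values were seen. Lgmn, the asparaginyl endopeptidase that processes cathepsins, was at 32.6, 26.6 and 19.9 FPKM at 8.5 dpp and at 116, 126 and 111 on D28, a rise of 2.14 (SE 0.154, limma adjusted p 9.94e-08). Manba, beta-mannosidase, rose by 1.58 (SE 0.168, limma adjusted p 3.75e-06) and Mitf, a transcription factor of the family that controls lysosomal genes, by 1.06 (SE 0.155, limma adjusted p 6.54e-05), each with all D28 libraries above all 3 at 8.5 dpp. Leaving out replicate 1 at 8.5 dpp gave 5 higher, and without replicate 3 at 8.5 dpp or replicate 3 at D22 Cst8 was no longer called at all 4 times. Of all genes called at every time, 58.2% were higher as deposited and 47.6% after quantile normalization.

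Between D6 and D28 5 of the 82 list genes were called higher by limma and 1 lower, beside 3.04% and 2.65% of all genes, with a median of 0.19 beside -0.04. Leaving out replicate 3 at D6 gave 3 list genes higher. Siae, an esterase acting on sialic acids, rose by 1.24 (SE 0.171, limma adjusted p 6.29e-04), from 9.27, 11.6 and 8.87 FPKM to 17.7, 28.1 and 29.9. Gm2a rose by 1.22 (SE 0.106, limma adjusted p 4.22e-05) and Psap, the precursor of the saposins, by 1.13 (SE 0.110, limma adjusted p 8.35e-05), from 463, 399 and 437 FPKM to 969, 839 and 1041. Hexa and Sort1, looked up after their values were seen, were the others. Ctla2a, an inhibitor of cathepsin L-like proteases whose gene lies next to Testin, fell by 0.45 (SE 0.137, limma adjusted p 0.0358), from 1.83, 1.68 and 1.63 FPKM to 1.46, 0.765 and 0.801. It was no longer called without any 1 of 6 libraries, namely each replicate of D6, replicate 1 of D16 and replicates 2 and 3 of D28, with values from -0.37 to -0.47 (limma adjusted p up to 0.119, from 0.00454 over 20 settings).

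Testin and Ctsl both lie on chromosome 17. Of the neighbours of Testin in the RefSeq order, Ctsql2, Ctsj and Tpbpa were listed at 0 in all 10 groups. Dapk1 on its other side was at means of 2.07 FPKM at 8.5 dpp, 0.215 at 53.5 dpp, 3.57 on D6 and 3.04 on D28, so it was lower in the older testis and higher in explants, as Testin was, but did not climb from D6 to D28. Genes whose pattern over the 10 groups was most like that of Testin, among 10008 genes whose median reached 5 FPKM somewhere, were Fam163a, Sstr3 and Sec14l4, at mean absolute log2 differences of 0.469, 0.554 and 0.586. For Cst3 they were Paqr7, Tex264 and Gba2 (0.232, 0.238 and 0.240), and for Cst12 Tox2, Emb and Fam227a (0.217, 0.254 and 0.361). For Ctsl they were Rin2, Sdc4 and Foxq1 (0.197, 0.246 and 0.265). For Fuca1 they were Sucla2, Hexa and Klhdc9 (0.176, 0.203 and 0.217). Fam163a was at 0.760 FPKM at 8.5 dpp, 9.26 on D16 and 15.8 on D28 by means. The ranking for Testin rested on replicate 3 at 24.5 dpp. Without it, a setting added after the values were seen, the genes most like Testin were Adm, Pla2g2a and Vegfa (0.445, 0.462 and 0.521). Mfsd13a then entered for Cst3, Rab20 for Ctsl, and Prpf40b and Slc25a38 for Fuca1, while the genes for Cst12 were the same.

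The promoters of 7 of the 9 members were read from RefSeq on GRCr8, windows of 300 bases that end 50 bases after the annotated start, with none listed for Cst9 and Ctsb. They were searched on both strands for the E-box, its longer form known as the core of a motif shared by lysosomal genes, the TATA box and the GC box. The E-box was found in Ctsd alone, at 2 places, and in 6.42% of 33469 rat promoters, or 9.04% of the 10836 that belong to genes tested here. Its longer form, TCACGTGA, was found in Ctsd alone as well, at the later of these 2 places, and in 0.777% of all promoters and 1.51% of those of tested genes. Of 70 promoters counted for the lysosomal lists, 15 held the E-box and 7 its longer form, so neither is particular to Ctsd. The GC box was found in Cst3, Ctsl, Ctsd and Fuca1 and in 33.1% of all promoters and 58.5% of those of tested genes. The TATA box was found in none of the 7, and in 14.2% and 7.60%. A match here is a match of letters and nothing more. Shown are Testin, with the largest ratio in culture and none of the 4 motifs, Ctsl, the abundant protease on the same chromosome, and Ctsd, the 1 member with the E-box, at chr17:3852259-3852558 (plus strand), chr17:769854-770153 (plus strand) and chr1:206968772-206969071 (minus strand). The annotated start used for Testin lies inside the listed span of the gene. Capitals mark the E-box, CACGTG on each strand, and the GC box, which reads GGGCGG, or CCGCCC where it lies on the opposite strand.
Testin: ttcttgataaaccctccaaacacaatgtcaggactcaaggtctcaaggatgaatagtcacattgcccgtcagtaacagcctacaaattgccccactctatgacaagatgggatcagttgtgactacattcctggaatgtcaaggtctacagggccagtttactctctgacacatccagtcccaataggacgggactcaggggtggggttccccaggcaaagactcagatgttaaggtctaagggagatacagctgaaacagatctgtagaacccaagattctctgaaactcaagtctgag
Ctsl: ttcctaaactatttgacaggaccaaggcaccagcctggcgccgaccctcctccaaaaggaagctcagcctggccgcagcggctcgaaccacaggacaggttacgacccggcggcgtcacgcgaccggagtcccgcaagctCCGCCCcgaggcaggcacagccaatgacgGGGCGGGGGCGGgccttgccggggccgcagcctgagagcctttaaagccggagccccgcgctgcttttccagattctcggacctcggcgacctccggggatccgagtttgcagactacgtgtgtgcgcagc
Ctsd: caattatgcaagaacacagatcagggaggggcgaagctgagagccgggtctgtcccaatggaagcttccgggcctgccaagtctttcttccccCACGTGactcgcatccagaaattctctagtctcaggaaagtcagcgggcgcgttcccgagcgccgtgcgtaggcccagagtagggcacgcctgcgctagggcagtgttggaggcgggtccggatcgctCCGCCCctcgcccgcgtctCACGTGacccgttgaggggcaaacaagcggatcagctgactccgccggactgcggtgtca
The window of Ctsl had 66.7% G and C with 30 CG pairs and that of Ctsd 63% with 27, while that of Testin had 47% with 2, beside medians of 51.7% and 7 over all promoters.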

How the data were processed

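The authors sequenced polyadenylated RNA, aligned the reads to rat genome rn6 with STAR (version 2.5.2a, after bcl2fastq 2.17.1.14) and deposited FPKM values for 17322 genes in 30 libraries, of which 29 were used. The 14.5 dpp library marked as an outlier holds no value above 0. Entrez gene numbers were matched to RefSeq, 17172 with a symbol, and Cst9 was matched through a synonym to the symbol Cst9l. Read counts were not used here and the depth is unknown, and a relative depth read from ratios of low values between libraries ran from 0.853 to 1.55, which limits the precision of genes near 0.

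Values were taken as log2 (FPKM + 1), and genes whose median reached 0.5 FPKM in any group of a fit were tested. limma (version 3.58.1, R 4.3.3) was fitted over all such genes, without a block, to the 17 in vivo libraries, the 12 cultured libraries, D16 to D28 with 14.5 dpp, and all cultured libraries with 8.5 dpp. A call needed a Benjamini-Hochberg adjusted p of at most 0.05 over all genes tested and group medians that differ by a factor of 2 or more. Named beyond the 9 members were the 5 called list genes with the largest rise and the 5 with the largest fall in culture against 14.5 dpp and from 8.5 to 53.5 dpp, the 3 of each from D6 to D28, the most abundant gene of each marker list and those of its leading genes at 0, and the 3 genes with the pattern most like each of 5 members. Members and lists were chosen with earlier results of these data known. Tables were made with Python 3.11.15, pandas 2.3.3, numpy 2.4.6 and scipy 1.17.1 and figures with matplotlib 3.10.9, and the fit was tested on simulated data. Alternatives were a pseudocount of 0.1, no filter or a filter at 1 FPKM, quantile normalization, median ratio scaling, a trend in the prior variance, all 10 groups in 1 fit, the replicate number as a block, and leaving out each library in turn.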

Additional observations from a re-analysis of the deposited data

Results flagged for a closer look

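In 3 members the FPKM moved in opposite directions with time in culture and with age in the animal, every late library lying on 1 side of every early library in each setting. The ratio of Testin at D28 to D6 was 14.4, all 3 libraries higher, and the ratio at 36.5 to 14.5 dpp was 0.265, all lower. For Ctsb the ratios were 1.27 and 0.235. For Ctsk they were 2.01 and 0.497. In each case the difference was not tested, and nothing is read from the culture ratio of Testin or from the count, since Testin was chosen for its rise in culture. By the same rule 8.68% of 12482 genes were higher with time in culture and lower with age, and 3.58% the reverse. Set against Sertoli cell transcripts the opposite directions did not hold. By the ratio to the geometric mean of Sox9, Wt1 and Gata4, 36.5 dpp was above 14.5 dpp without overlap for Testin, Ctsb and Ctsk, at 3.02, 2.66 and 5.72 times. By the ratio to the summed Sertoli cell list, Testin and Ctsb overlapped between these ages (1.003 and 0.918 times) and Ctsk was higher at 36.5 dpp (2.04 times), while D28 stood at 7.14, 0.622 and 0.971 times D6 for Testin, Ctsb and Ctsk. That sum rose from D6 to D28 mostly through Clu. For all 3 genes the levels at 14.5 dpp come from 2 testes, which for Ctsk were at 44.5 and 88.4 FPKM.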

How the results depend on the processing

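Over settings other than leaving out a library, 206 of 208 counts stayed within 1.5 times and 502 of 512 gene results kept their direction and call. The exceptions among counts came with median ratio scaling, which gave 668 genes lower from 24.5 to 30.5 dpp and 16 list genes higher from 8.5 to 53.5 dpp, and which turned Cst3 (0.63) and Ctsk (0.59) from 8.5 to 53.5 dpp and Fuca1 (0.45) from 24.5 to 30.5 dpp. Leaving out 1 library kept 366 of 377 counts within 1.5 times and 945 of 974 gene results. List genes then numbered 3 to 5 higher and 0 to 1 lower from D6 to D28, 0 to 1 lower against 14.5 dpp, and 2 to 5 higher and 0 to 1 lower against 8.5 dpp. Reversed were Testin from 14.5 to 24.5 dpp (-0.58, in a range of -0.58 to 1.17) and from 24.5 to 30.5 dpp (0.17, from -1.58) and Ctsk from 14.5 to 24.5 dpp (0.11) without replicate 3 at 24.5 dpp, Ctsk in the same step (0.43) without replicate 2 at 14.5 dpp (lowest -0.54), Fuca1 from 24.5 to 30.5 dpp (0.09, 0.13 and 0.20 without replicates 1 and 2 at 24.5 dpp and replicate 1 at 30.5 dpp, lowest -0.36), and Ctsd from D6 to D28 (-0.08 and -0.14 without replicate 2 at D6 and replicate 1 at D28, highest 0.14). The cause was not tested. Libraries of the same replicate number had a median r of 0.0267 in vivo (2 of 40 pairs above 0.1), 0.0484 in culture (5 of 18, highest 0.218) and 0.0816 over 14.5 dpp and D16 to D28 (3 of 15), beside -0.00999, -0.0166 and -0.0331 for other pairs. They were not taken as pairs, since not every r passed 0.1. With them as a replicate block the F test and fold called 11284 genes in vivo, 743 within culture, 1798 against 14.5 dpp and 3472 against 8.5 dpp, beside 11298, 762, 1878 and 3450 without it. Unknown depth limits values near 0, such as Testin in the older testis.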
